A study of Rattus norvegicus with 9 samples.

Results

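Ttr, Aqp1 and Enpp2, 3 of the 32623 rat genes listed in a count table of 9 brain libraries, are described here as a measure of choroid plexus in the tissue that was sampled. They were chosen by their Ensembl identifiers, ENSRNOG00000016275 (Ttr), ENSRNOG00000011648 (Aqp1) and ENSRNOG00000004089 (Enpp2), and the rule uses no measured value, although earlier results of these data were known when they were proposed. The table gives identifiers only, the reference gene table used here pairs 0 of its genes with an Ensembl identifier, and the pairing of symbol and identifier came with the choice of genes. All 3 genes had enough counts to be tested, as did 15402 genes in all.

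The choroid plexus is the vascular tissue in the brain ventricles whose epithelium secretes cerebrospinal fluid. Ttr encodes transthyretin, a carrier of thyroid hormone and of retinol-binding protein, and within the brain it is expressed mainly by that epithelium. Enpp2 encodes autotaxin, a secreted enzyme that makes lysophosphatidic acid and is also expressed by oligodendrocytes. Aqp1 encodes a water channel of the epithelial membrane that faces the ventricle, and it is also found in red blood cells and in some blood vessels. Because a dissected block of brain can hold more or less of this small tissue, such genes serve as a check on what was dissected.

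All rats had undergone modelling, of a kind the labels leave undescribed, and unmodelled animals were not analysed here. At 4.5 h after that step, 1 group was injected with saline, 1 with rt-PA (recombinant tissue plasminogen activator, which dissolves clots) and 1 received Nano-patrol+NIR, which the labels describe no further. Brain tissue was taken 3 days after injection, but the labels leave out its region and hemisphere and the rats' age and strain. A library is named by its group and replicate number, 1 to 3. The rt-PA libraries are called uk in the count columns and in the sample descriptions, and which agent that group received was not resolved. Whether replicates were separate animals is not stated, and the p-values below therefore rest on a spread that may be technical.

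Library totals of 13059048 to 14992109 counts, were at most 1.15 times apart. In each group 1 library stood apart, namely saline 1, rt-PA 3 and Nano-patrol+NIR 3. In log2 CPM (a library's counts divided by its TMM-scaled total) over all tested genes, these correlated with the others of their group at r = 0.896 to 0.944, and the remaining pair of each group at 0.984 to 0.990. The comparisons of groups and the correlations between the 3 genes are also given with libraries left out. The spreads, the correlations of deviations from group means and the ranks of likeness are given for all 9 libraries only.

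Ttr was almost absent from the saline libraries and spanned the widest range of log2 CPM between libraries of any tested gene. In saline it had 62, 0 and 5 counts, which is 4.21, 0 and 0.355 CPM in saline 1, 2 and 3. In rt-PA it had 1810, 0 and 4038 counts, or 139.7, 0 and 281 CPM in rt-PA 1, 2 and 3. In Nano-patrol+NIR it had 4754, 2024 and 35643 counts, or 355, 154 and 2481 CPM in Nano-patrol+NIR 1, 2 and 3. Each Nano-patrol+NIR library lay above each saline library, whereas the rt-PA group held both high libraries and one without a single Ttr count. A count of 0 allows up to 0.231 CPM in saline 2 and 0.229 CPM in rt-PA 2, taking 3 counts as the limit.

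In Nano-patrol+NIR 3, Ttr was the 16th most abundant row of the whole table and took 0.273% of all counts (exact 95% binomial interval 0.270 to 0.276%). It was the 450th most abundant row in Nano-patrol+NIR 1, the 521st in rt-PA 3, the 1377th in Nano-patrol+NIR 2 and the 1572nd in rt-PA 1. It was only the 12113th in saline 1. These intervals and limits cover counting error only, since PCR copies were not told apart from molecules. In order of level, Nano-patrol+NIR 3 was 6.99-fold above Nano-patrol+NIR 1, which was 1.26-fold above rt-PA 3. Nano-patrol+NIR 2 and rt-PA 1 followed within 1.10-fold of each other, and 33.2-fold below rt-PA 1 came saline 1.

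Enpp2, the gene of autotaxin, was present in every library and followed Ttr in its high values. It measured 28.3, 54.7 and 53.4 CPM in saline 1, 2 and 3. In rt-PA 1, 2 and 3 it measured 88.5, 27.0 and 176 CPM. In Nano-patrol+NIR 1, 2 and 3 it measured 112, 82.0 and 718 CPM. Every Nano-patrol+NIR library was again above every saline library. The 5 libraries highest in Enpp2 were the same 5 that were highest in Ttr, with Nano-patrol+NIR 3 first in both. The 4 with little or no Ttr, including rt-PA 2, kept 27.0 to 54.7 CPM of Enpp2.

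Aqp1, the water channel, had a different order of libraries. It measured 22.1, 7.63 and 8.24 CPM in saline 1, 2 and 3. In rt-PA 1, 2 and 3 it measured 25.5, 18.7 and 7.86 CPM. In Nano-patrol+NIR 1, 2 and 3 it measured 6.04, 2.65 and 57.8 CPM. The Nano-patrol+NIR group therefore held both its lowest libraries and its highest one, and all groups overlapped. rt-PA 2, with 0 counts of Ttr, had 245 counts of Aqp1, against 81 in Nano-patrol+NIR 1, where Ttr had 4754.

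**Figure D1:**
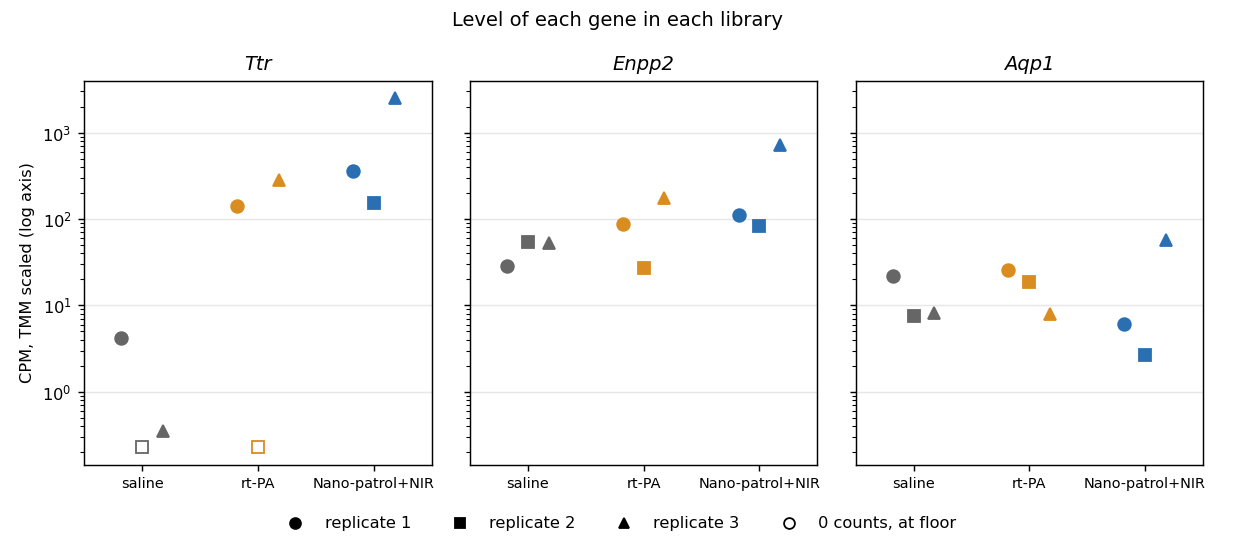
Level of Ttr, Enpp2 and Aqp1 in each of the 9 libraries, as TMM-scaled CPM on a log axis, by group. Each point is 1 library, its shape gives the replicate number, and open points are libraries with 0 counts drawn at the level that 3 counts would give. Nano-patrol+NIR 3 is the highest library in all 3 panels, saline holds at most 4.21 CPM of Ttr, and Aqp1 is lowest in Nano-patrol+NIR 1 and 2.

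As group means, Ttr was 1.52 ± 2.33 CPM in saline, 140.2 ± 140.5 CPM in rt-PA and 996 ± 1289.7 CPM in Nano-patrol+NIR (SD, n = 3 each). Enpp2 was 45.5 ± 14.9, 97.2 ± 74.9 and 304 ± 359 CPM in the same order. Aqp1 was 12.6 ± 8.16, 17.3 ± 8.88 and 22.2 ± 30.9 CPM. The SD was as large as the mean, or larger, for Ttr in every group and for Enpp2 and Aqp1 in Nano-patrol+NIR. In bulk tissue, fewer cells of a type and less RNA per cell cannot be told apart.

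In none of the comparisons did any of the 3 genes pass the threshold, an edgeR adjusted p under 0.05 over all 15402 genes. Between Nano-patrol+NIR and saline, the log2 fold change of Ttr was 9.32 (SE 2.54, unadjusted p = 0.00538, edgeR adjusted p = 0.577), with 3 of 3 libraries above saline. That p ranked 143rd among all tested genes. For Enpp2 it was 2.74 (SE 0.93, unadjusted p = 0.017, edgeR adjusted p = 0.739), also with 3 of 3 libraries above saline, and for Aqp1 0.81 (SE 1.01, edgeR adjusted p = 1). Of all tested genes, 0.00649% were called in this comparison, 1 gene, and 7.62% had all Nano-patrol+NIR libraries above all saline libraries, as Ttr and Enpp2 did, and 6.86% below. An unadjusted p under 0.05 was reached by 5.89% of all tested genes.

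With DESeq2 Ttr passed in that comparison, at a log2 fold change of 9.36 (SE 2.45, DESeq2 adjusted p = 0.0233). DESeq2 called 132 genes there, 0.857% of those tested, and neither Enpp2 (DESeq2 adjusted p = 0.0721) nor Aqp1 was among them. Without Nano-patrol+NIR 3 the edgeR log2 fold change of Ttr was 7.34 (SE 2.26, unadjusted p = 0.0123), that of Enpp2 was 1.10 (SE 0.64, unadjusted p = 0.127) and that of Aqp1 was -1.54 (SE 0.70, unadjusted p = 0.0602). Both remaining Nano-patrol+NIR libraries were above all saline libraries in Ttr and Enpp2, and below them all in Aqp1. With these 2 libraries against 3, 12.5% of all tested genes were above and 13.1% below. Without saline 1 the log2 fold change of Ttr was 12.36 (SE 3.48, edgeR adjusted p = 0.623). Without the 3 libraries that stood apart it was 10.36 (SE 3.89, edgeR adjusted p = 0.333). Both fits kept only saline 2 and 3 of the saline group, which had 0 and 5 counts of Ttr.

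Between rt-PA and saline, the log2 fold change of Ttr was 6.49 (SE 2.27, unadjusted p = 0.0195, edgeR adjusted p = 0.207), with 2 of 3 rt-PA libraries above saline. Enpp2 had a log2 fold change of 1.10 (SE 0.89, edgeR adjusted p = 0.555) and Aqp1 of 0.45 (SE 1.01, edgeR adjusted p = 0.849). Ranges of the groups overlapped for all 3 genes, while 9.18% of tested genes had all rt-PA libraries above saline and 10.3% below. edgeR called 0.00649% of genes in this comparison. An unadjusted p under 0.05, as Ttr had, was reached by 17% of them, and DESeq2 called 6.88%, with an adjusted p of 0.0831 for Ttr. Without rt-PA 3 the log2 fold changes were 5.50 for Ttr, 0.38 for Enpp2 and 0.82 for Aqp1. Without rt-PA 2, the library with no Ttr, that of Ttr was 7.08 (SE 1.67, edgeR adjusted p = 0.262). With limma-voom and a weight per library, Aqp1 passed (log2 fold change 1.46, adjusted p = 0.015), as it did without the 3 libraries that stood apart (1.52, edgeR adjusted p = 0.00419). These last fits called 6956 of 15402 and 6710 of 15309 tested genes.

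Between Nano-patrol+NIR and rt-PA, the log2 fold changes were 2.83 for Ttr (SE 1.86, edgeR adjusted p = 0.541), 1.65 for Enpp2 (SE 0.89, edgeR adjusted p = 0.454) and 0.36 for Aqp1 (SE 1.01, edgeR adjusted p = 0.903). All 3 overlapped between the groups, whereas 8.89% of tested genes were higher in every Nano-patrol+NIR library and 8.54% lower, and edgeR called 0% of genes (13.8% had an unadjusted p under 0.05, and DESeq2 called 4.07%). Compared by replicate number, Ttr and Enpp2 were higher in Nano-patrol+NIR in 3 of 3 pairs and Aqp1 in 1 of 3. No label pairs these numbers, and the share of all tested genes higher in 3 of 3 pairs was not computed. With the replicate number as a block in the fit of all 9 libraries, the log2 fold changes were 4.09 for Ttr (SE 1.70, unadjusted p = 0.0478, edgeR adjusted p = 0.411), 1.32 for Enpp2 (edgeR adjusted p = 0.464) and -0.33 for Aqp1 (edgeR adjusted p = 0.938). With the block and only the 6 libraries of these groups they were 3.66 for Ttr (SE 1.55, unadjusted p = 0.0645, edgeR adjusted p = 0.364), 1.33 for Enpp2 (SE 0.36, unadjusted p = 0.0138, edgeR adjusted p = 0.282) and -0.94 for Aqp1 (edgeR adjusted p = 0.765). Without Nano-patrol+NIR 3, and with no block, the log2 fold change was 0.84 for Ttr, -0.02 for Enpp2 and -2.03 for Aqp1 (edgeR adjusted p = 0.354). Aqp1 changed sign there, and it passed, as lower in Nano-patrol+NIR, with limma-voom and library weights (-2.32, adjusted p = 0.00523) and without the 3 libraries that stood apart (-2.38, edgeR adjusted p = 0.000688). Here the same fits called 6027 of 15402 and 6195 of 15309 tested genes. The comparisons share libraries with each other, those of saline or of a treated group, and are not independent.

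**Figure D2:**
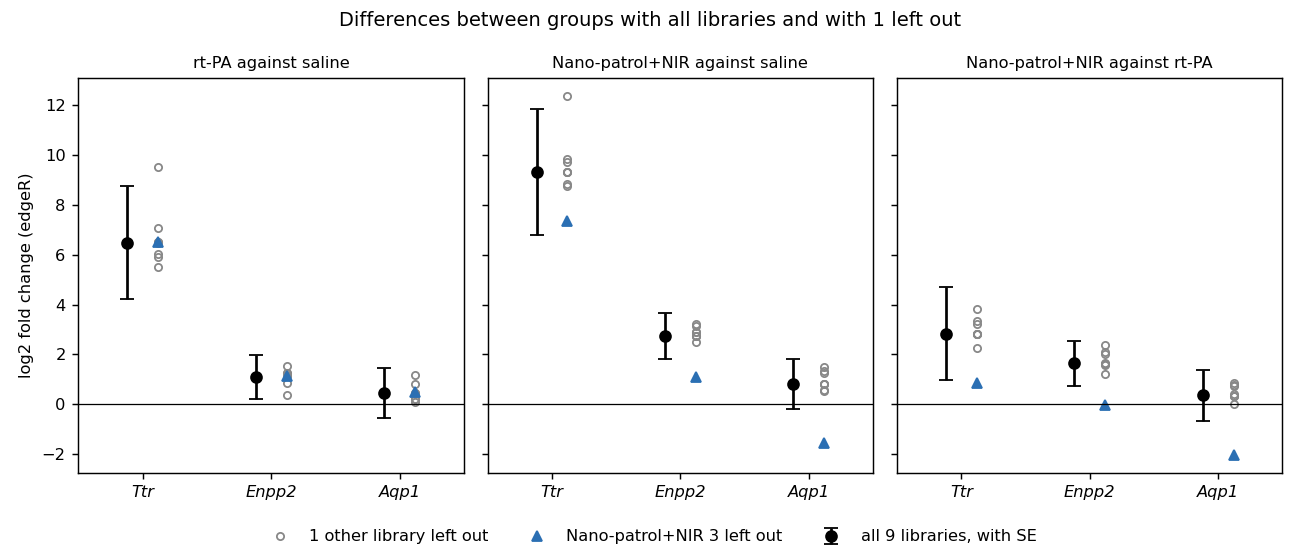
edgeR log2 fold change of each gene in the 3 comparisons, with all 9 libraries (black, bars are 1 SE) and with 1 library left out (grey circles, and blue triangles where Nano-patrol+NIR 3 was left out). Without that library Ttr stayed above saline at 7.34, while Aqp1 went to -1.54 against saline and -2.03 against rt-PA.

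Asked over all 3 groups at once, no member passed either, with edgeR adjusted p of 0.219 for Ttr, 0.306 for Enpp2 and 0.899 for Aqp1. This test called 0.00649% of all genes, and 14.7% had an unadjusted p under 0.05. DESeq2 gave Enpp2 an adjusted p of 0.049 in it, where it called 7.08% of all genes. Aqp1 passed with limma-voom and library weights (adjusted p = 0.00501) and without the 3 libraries that stood apart (edgeR adjusted p = 0.00104). Those fits called 7624 of 15402 and 6932 of 15309 tested genes.

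The ratio of 2 genes' counts within a library shows whether they vary in proportion. It needs no scaling, and ratios are compared here between libraries only, since counts are not per transcript length. Within the Nano-patrol+NIR group the ratio of Ttr to Aqp1 ranged less, by its point values, than the ratios that involve Enpp2. Ttr to Aqp1 was 58.7, 57.8 and 42.9 in Nano-patrol+NIR 1, 2 and 3 (exact 95% intervals 47.1 to 74.0, 41.4 to 83.3 and 40.0 to 46.0). That is a range of 1.37-fold, while Ttr itself ranged over 16.2-fold and Aqp1 over 21.8-fold. The intervals of Nano-patrol+NIR 1 and 3 do not overlap here either. Aqp1 had only 81 counts in Nano-patrol+NIR 1 and 35 in Nano-patrol+NIR 2. Ttr to Enpp2 was 3.16, 1.87 and 3.45 (2.98 to 3.35, 1.74 to 2.02 and 3.38 to 3.53), intervals that do not overlap, and ranged over 1.84-fold while Enpp2 ranged over 8.76-fold. Enpp2 to Aqp1 ranged over 2.49-fold.

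The wide ranges of the levels rested on Nano-patrol+NIR 3. Between Nano-patrol+NIR 1 and 2, Ttr was 2.31-fold, Aqp1 2.28-fold and Enpp2 1.37-fold apart. The ratio of Ttr to Aqp1 was 1.01-fold apart between them, with wide intervals of 47.1 to 74.0 and 41.4 to 83.3. Ttr to Enpp2 was 1.69-fold and Enpp2 to Aqp1 1.66-fold apart, more than Enpp2 itself.

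Outside that group neither the ratio of Ttr to Aqp1 nor that of Ttr to Enpp2 lay within its Nano-patrol+NIR range in any library. How often the ratio of 2 other genes sets this group apart was not computed. In saline and in rt-PA 2 Ttr itself had at most 62 counts, which keeps both ratios low there. Ttr to Aqp1 was 35.7 in rt-PA 3 (interval 29.6 to 43.5, overlapping that of Nano-patrol+NIR 3), but 5.49 in rt-PA 1, 0 in rt-PA 2 (upper 95% limit 0.0152) and 0.191 in saline 1. Ttr to Enpp2 was 1.58 in rt-PA 1 and 1.60 in rt-PA 3, with intervals of 1.47 to 1.70 and 1.52 to 1.68 that overlap. Both intervals lay below those of the Nano-patrol+NIR libraries. This ratio was 0 in rt-PA 2 (upper 95% limit 0.0105) and in saline 2 (upper 95% limit 0.00521). It was 0.149 in saline 1 and 0.00666 in saline 3. Over the 5 libraries with at least 100 CPM of Ttr, a level chosen after the values were seen, Ttr ranged over 17.8-fold and its ratio to Enpp2 over 2.19-fold. In the same libraries its ratio to Aqp1 ranged over 10.7-fold.

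Enpp2 to Aqp1, which does not involve Ttr, was 1.28, 7.17 and 6.47 in saline 1, 2 and 3. It was 3.47, 1.45 and 22.4 in rt-PA 1, 2 and 3, and 18.6, 30.9 and 12.4 in Nano-patrol+NIR 1, 2 and 3. The Nano-patrol+NIR libraries were all above the saline ones in this ratio, and rt-PA spanned both. How often the ratio of 2 other genes separates these groups was not computed. Saline 1 and rt-PA 2 had the lowest ratios, and they were also the lowest in Enpp2. The exact permutation test of a ratio was not run, because 0.1 is the smallest two-sided p that groups of 3 allow. How much of the Aqp1 or Enpp2 RNA came from red blood cells, vessels or oligodendrocytes was not tested, since the markers of these cells carry no symbol in the table.

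**Figure D3:**
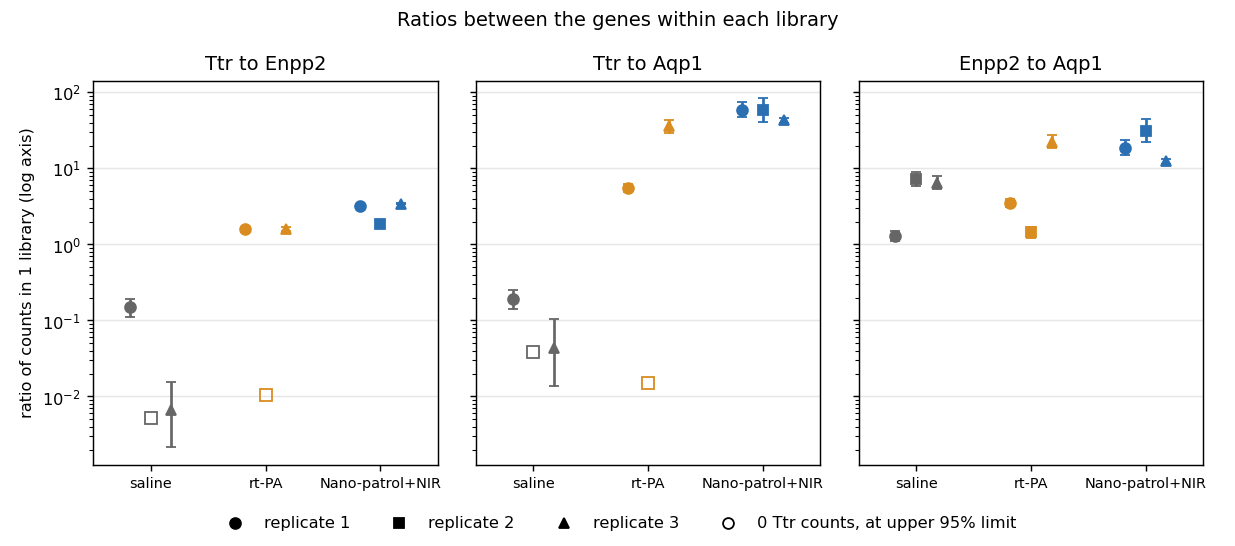
Ratio of the counts of 2 genes within each library, on a log axis, by group; bars are exact 95% intervals for counting error, and open points are the upper limits where Ttr had 0 counts. Ttr to Aqp1 lies between 42.9 and 58.7 in the Nano-patrol+NIR libraries and between 0 and 0.191 in saline, and Ttr to Enpp2 is 1.58 and 1.60 in rt-PA 1 and 3.

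Set beside all tested genes, the spread of Ttr was extreme and that of the other members large. From lowest to highest library Ttr spanned 14.05 on the log2 CPM scale (prior count of 2), the widest of 15402 genes, where the median gene spanned 1.21. Its low end, -2.77 in saline 2 and rt-PA 2, is the value the prior gives to 0 counts. The size of its range and of its spread on that scale therefore depends on the prior. Enpp2 spanned 4.72 and ranked 319th, and Aqp1 spanned 4.37 and ranked 447th. Of the sum of squares over the 9 libraries, 40.6% lay within groups for Ttr, 59.6% for Enpp2 and 95.2% for Aqp1, against 70.8% for the median gene. The SD within groups on that scale was 3.95 for Ttr, 1.48 for Aqp1 and 1.29 for Enpp2, against a median of 0.36, and ranked 4th, 321st and 500th. The biological coefficient of variation that edgeR assigned was 1.66 for Ttr, 0.811 for Aqp1 and 0.711 for Enpp2, against a median of 0.283. Only 21 genes, 0.136% of those tested, had at most 5 counts in 1 library and at least 1000 in another, limits set after the values of Ttr were seen.

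**Figure D4:**
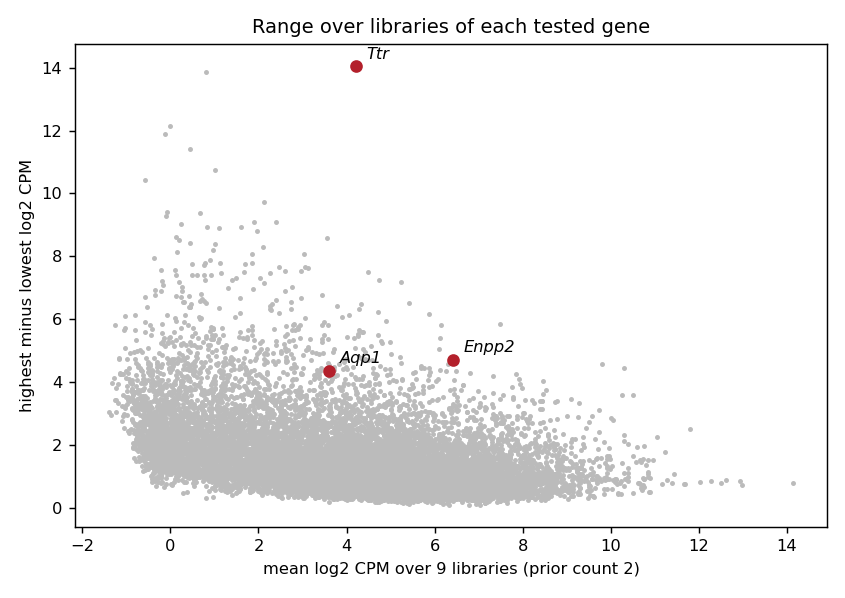
Range over the 9 libraries (highest minus lowest log2 CPM) against mean log2 CPM for each of 15402 tested genes, with Ttr, Enpp2 and Aqp1 in red. Ttr, at 14.05, is the highest point, and Enpp2 at 4.72 and Aqp1 at 4.37 lie far above the median of 1.21.

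All 3 genes were highest in Nano-patrol+NIR 3, Ttr by 6.99-fold over the next library, Enpp2 by 4.08-fold and Aqp1 by 2.27-fold. Of all tested genes, 13.7% were highest in that library and 1.66%, 256 genes, were at least 2-fold above the next one, again a limit set after the values were seen. Saline 1 had 282 such genes and rt-PA 3 had 136, but no other library had more than 19. Neither saline 1 nor rt-PA 3 was the highest library for any of the 3 members.

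Across the 9 libraries Ttr and Enpp2 resembled each other more than either resembled Aqp1. On log2 CPM the Pearson r was 0.81 for Ttr and Enpp2 (Spearman 0.85), 0.13 for Ttr and Aqp1 (0.07) and 0.29 for Enpp2 and Aqp1 (0.03). These are descriptions without a p-value. Ttr fell into separate sets of libraries, 4 at 4.21 CPM or less and 5 at 139.7 CPM or more. How much of its r comes from that split was not computed. On deviations from the group means, r was 0.66, 0.28 and 0.46 in the same order. Without Nano-patrol+NIR 3 the r of Ttr and Aqp1 was -0.29, and that of Enpp2 and Aqp1 was -0.48. Among 11860 other genes averaging at least 5 CPM, Enpp2 ranked 73rd in likeness to Ttr, and Aqp1 4350th.

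The 5 genes most like each member, of those averaging at least 5 CPM, had r of 0.947 to 0.974 with Ttr, 0.947 to 0.966 with Aqp1 and 0.939 to 0.977 with Enpp2, over 9 libraries. The gene most like Ttr was ENSRNOG00000019902, for which no symbol was found. It measured 0.475, 0 and 0.0711 CPM in saline 1, 2 and 3, and 2.01, 0.0762 and 5.01 CPM in rt-PA 1, 2 and 3. In Nano-patrol+NIR 1, 2 and 3 it measured 3.51, 3.56 and 31.2 CPM. It was picked for its likeness to Ttr over these same libraries, so a shared pattern follows from the choice. In saline 2, saline 3 and rt-PA 2 it had only 0, 1 and 1 counts. Its mean of 5.11 CPM lay just over the limit of 5 CPM, with its highest level in Nano-patrol+NIR 3. The gene most like Aqp1 was ENSRNOG00000007457, which measured 38.5, 18.1 and 19.9 CPM in saline and 42.5, 41.1 and 22.4 CPM in rt-PA, libraries 1, 2 and 3 in turn. In Nano-patrol+NIR it measured 21.5, 15.0 and 86.5 CPM. It too was lowest in Nano-patrol+NIR 2 and highest in Nano-patrol+NIR 3, which again follows from the choice.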

How the data were processed

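Per the labels' protocols, Trizol RNA of rat brain was poly(A)-selected and fragmented, and libraries were enriched by PCR. HISAT2, StringTie 1.3.1, Bowtie2 2.2.8 and fastp 0.18.0 appear in the submitters' processing notes without their roles. The sources used here give no counter, strand setting, build or annotation. Whole-number counts were deposited by the authors per gene and library, not normalized, and used unchanged. Reads shared with overlapping or antisense genes cannot be told apart in them.

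In R 4.3.3, edgeR 4.0.16 kept 15402 genes by filterByExpr, scaled libraries by TMM and fitted all 9 libraries with 1 mean per group. Contrasts used edgeR's quasi-likelihood test with robust dispersions and Benjamini-Hochberg adjustment over all tested genes. The SE is the log2 fold change over the root of the F statistic. DESeq2 1.42.0 and limma 3.58.1 served as alternatives, beside other scalings, filters, left-out libraries and a replicate block. Deviations from group means of same-numbered rt-PA and Nano-patrol+NIR libraries correlated across genes at 0.113, 0.254 and 0.278, all over 0.1, so a blocked fit is given for that comparison. This pairing comes from the data, and no label states it.

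The genes, lists and named-gene rule (the members, and the 5 genes most like each by Pearson r) use no measured value of the members except for likeness, but were chosen with earlier results of these data known. Marker lists of choroid plexus, other cell types and brain regions were written as symbols, and with 0 identifiers paired with symbols they were not used.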

Additional observations from a re-analysis of the deposited data

How the results depend on the processing

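Leaving out saline 1, rt-PA 3 and Nano-patrol+NIR 3 together, and the block with only 6 libraries, were chosen after seeing the data. Over the 19 alternatives of each comparison with saline and the 20 between the treatments Ttr kept its sign, with log2 fold changes of 4.82 to 9.53 between rt-PA and saline, 7.34 to 12.36 between Nano-patrol+NIR and saline and 0.84 to 5.41 between the treatments, and passed once, with DESeq2 (9.36). Enpp2 kept its sign except between Nano-patrol+NIR and rt-PA without Nano-patrol+NIR 3, where it was -0.0197 and without rt-PA 3 2.38, the ends of its range over left-out libraries. It passed only in the DESeq2 test of any group (adjusted p = 0.049).

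Aqp1 was the unstable member, with changes of sign in both comparisons of Nano-patrol+NIR. Between rt-PA and saline its log2 fold change kept its sign in 19 of 19 alternatives, at 0.074 to 1.52. For Nano-patrol+NIR against saline it was -0.17 with limma-voom, -0.86 with library weights, -1.54 without Nano-patrol+NIR 3 and -0.86 without the 3 libraries together, and ran from -1.54 to 1.51 as 1 library was left out. For Nano-patrol+NIR against rt-PA it was -0.61 with limma-voom, -2.32 with library weights, -0.33 with the replicate block, -0.94 with that block and 6 libraries, -0.01 without rt-PA 3, -2.03 without Nano-patrol+NIR 3 and -2.38 without the 3 together, and ran from -2.03 to 0.87 as 1 library was left out. For rt-PA against saline it passed with library weights (1.46) and without the 3 libraries (1.52), and in the test of any group its adjusted p was 0.00501 and 0.00104 there.

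edgeR called 1 gene between rt-PA and saline, 1 between Nano-patrol+NIR and saline, 0 between the treatments and 1 for any group; other numbers follow in that sequence. DESeq2 called 1059, 132, 627 and 1090, limma-voom 0, 0, 1 and 0, library weights 6956, 909, 6027 and 7624, and the fit without the 3 libraries 6710, 501, 6195 and 6932. Without a low-count filter any group gave 3. Only the 6 libraries compared gave 0, 3 and 0. Leaving out 1 library gave 0 to 2112, 0 to 35, 0 to 2047 and 1 to 1893, the highest each time without rt-PA 3.

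With the replicate block the calls were 0, 0, 0 and 1, and Ttr had log2 fold changes of 5.92, 10.01 and 4.09 (edgeR adjusted p = 0.256, 0.539 and 0.411). Same-numbered deviations correlated at -0.362 to 0.228 between saline and the treated groups, so no pairing was assumed there; between the treatments all 3 pairs were over 0.1, and the block with 6 libraries called 0 genes. Of 9 libraries, 2 were most like one of their own number.

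The likeness of Ttr and Enpp2 was 0.782 with a prior count of 0.5, 0.85 by Spearman and 0.761 to 0.846 without 1 library. That of Ttr and Aqp1 ran from -0.287 to 0.327 and that of Enpp2 and Aqp1 from -0.477 to 0.444. The scaling moved no group mean of the 3 genes by more than its SD, and ratios do not depend on it. What caused such changes was not tested (the cause was not tested for any setting). Depth limits the lowest Ttr values most, at 0 to 5 counts. It also widens the intervals of the ratios to Aqp1 in Nano-patrol+NIR 1 and 2, where Aqp1 had 81 and 35 counts.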
